A study of Homo sapiens with 6 samples.

Results

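KHOS and U-2OS cells, both human osteosarcoma lines, were compared after transfection with CDK11 siRNA and without any transfection, to find the transcripts that differed from cells left without siRNA. The comparison used 4 of the 6 arrays of the study, an untransfected array (labelled control) and a CDK11 siRNA array in each line. The other 2 arrays, of cells given nonspecific siRNA, are shown beside them. The siRNAs were used at 40 nM, and each array held RNA pooled from 3 flasks, so that each line had 1 array per group and the 2 lines served as the 2 replicates. An untransfected array differs from a CDK11 siRNA array in the targeting sequence and in the transfection itself, and within this comparison these cannot be told apart. All values are log2 signals of Affymetrix U133 Plus 2.0 probe sets, and 16397 of 54675 probe sets had a signal above 100 (6.644 on the log2 scale) on at least 1 of the 6 arrays. These covered 8878 genes. The median over all probe sets was between 2.92 and 2.98 on the 6 arrays, so that a level near 3 is close to background. In bulk RNA, fewer cells of a kind and less RNA per cell cannot be told apart.

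Both lines carried the markers of a mesenchymal tumour line. Of 12 osteosarcoma and mesenchymal markers, 8 were above the signal limit on each KHOS array and 6 or 7 on each U-2OS array. VIM, which encodes vimentin, lay between 14.52 and 15.48 on the 6 arrays, whereas ALPL, the alkaline phosphatase of mature osteoblasts, was near background on all of them, between 2.83 and 3.0. Of 10 epithelial markers, 1 or 2 were above the limit on the KHOS arrays and 0 on the U-2OS arrays. EPCAM, an epithelial adhesion molecule, was at 8.92, 8.81 and 9.0 on the KHOS arrays (untransfected, nonspecific siRNA and CDK11 siRNA). None of 8 endothelial and 10 blood cell markers was above the limit on any array, and 8 of the blood cell markers were measured.

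CDK11 is a kinase that binds L-type cyclins. The kinase is encoded by the neighbouring and nearly identical genes CDK11A and CDK11B, and it is known for its roles in transcription by RNA polymerase II and in pre-mRNA splicing, with a shorter form that acts in mitosis. The 2 probe sets of CDK11A and CDK11B above the signal limit match both genes. The brighter of them was at 9.69 in untransfected KHOS cells and 7.64 with CDK11 siRNA, and at 8.97 and 6.24 in U-2OS, which left 24.2% and 15.0% of the untransfected signal. The other kept 25.1% of it in KHOS. In U-2OS it kept 11.7%, at a level of 3.75, close to background. The targeted transcript was therefore lower on both CDK11 siRNA arrays than on the untransfected array of the same line.

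In both lines the array of CDK11 siRNA had lower levels than the untransfected array of the replication genes CDC7 and MCM3, the deubiquitinase USP13 and the transcription regulators CBFB and RPRD1A. It had higher levels of the immediate early gene FOS, the inflammatory genes PTGS2 and CXCL8 and the interferon-stimulated genes OAS1 and ISG20. OAS1 was below the signal limit on every U-2OS array. In KHOS the nonspecific siRNA arrays of OAS1 and ISG20 were within 0.5 of those of CDK11 siRNA. Within each line, the difference of CDK11 siRNA from untransfected cells was called when it lay beyond 3 SD of the differences of all kept probe sets. This put the bounds at -1.61 and 1.62 for KHOS, and at -1.30 and 1.25 for U-2OS. A gene was counted by any of its probe sets, and its difference is the mean over the probe sets beyond the bound. In KHOS 198 genes were counted (2.23% of 8878), 122 higher and 76 lower. In U-2OS 224 were counted (2.52%), 92 higher and 132 lower. Of these, 23 were lower in both lines (0.259% of all genes), 11 were higher in both (0.124%) and 1, BCL2A1, went in opposite directions (0.0113%). These counts are descriptions of single arrays and have no p-value.

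**Figure D1:**
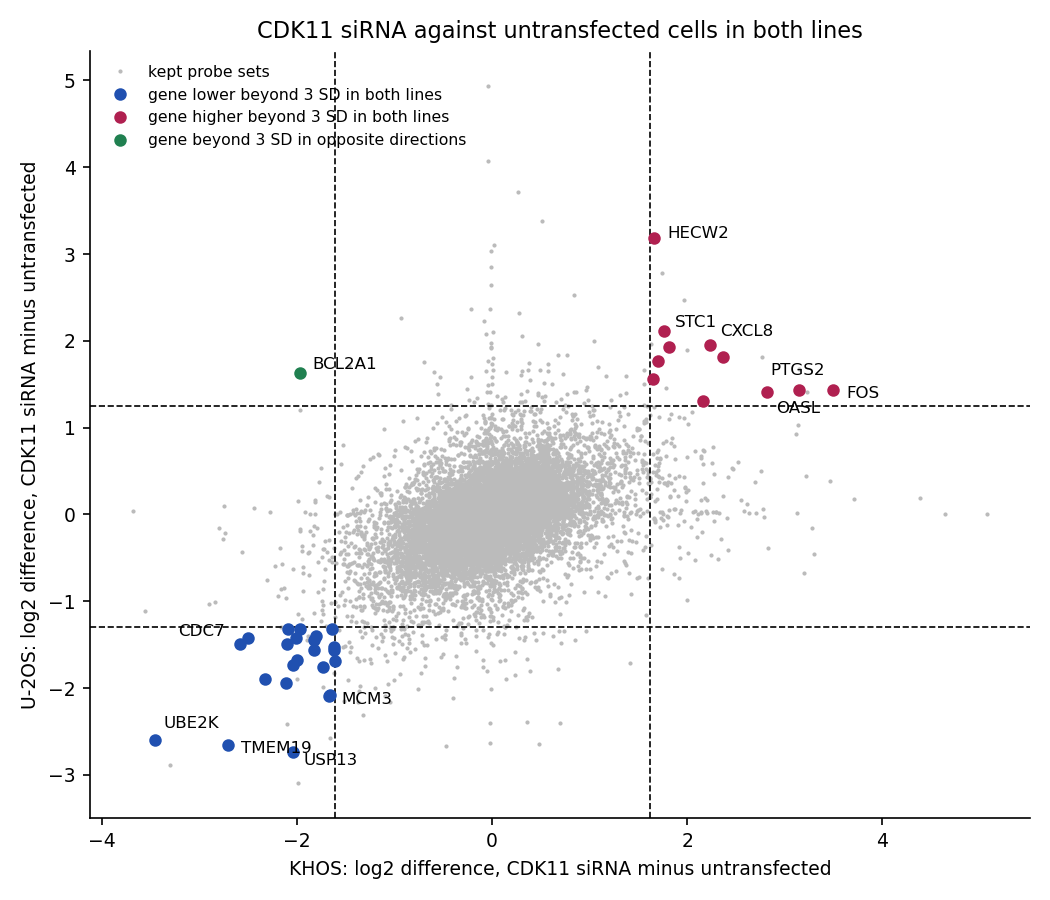
Log2 difference of CDK11 siRNA and untransfected cells for KHOS on the x axis and U-2OS on the y axis. Grey points are the 16397 kept probe sets, dashed lines the 3 SD bounds of each line, and coloured points the genes counted in both lines, at the mean of their probe sets beyond the bounds. The 23 lower genes lie in the lower left corner, the 11 higher genes in the upper right, and BCL2A1 in the upper left.

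The 2 lines share no array, so that genes chosen in 1 line can be read in the other. The chosen genes were read by the mean of their probe sets beyond the bound in the choosing line. All genes were read by their brightest probe set, so that the shares set side by side are of unlike measures. Of the 76 genes lower in KHOS, 65 were also below 0 in U-2OS (85.5%, against 48.9% of all genes), with a median difference of -0.81, and 47 (61.8%) were lower by over 0.5, against 8.02% of all genes. Of the 132 genes lower in U-2OS, 105 were below 0 in KHOS (79.5%, against 50.1%), with a median of -0.82, and 78 (59.1%) were lower by over 0.5, against 12.1% of all genes. The genes higher in KHOS numbered 122, of which 77.9% were above 0 in U-2OS (51.1% of all genes), with a median of 0.22 and 39 (32.0%) higher by over 0.5 against 6.72% of all genes. Those higher in U-2OS numbered 92, of which 67.4% were above 0 in KHOS (49.9% of all genes), with a median of 0.32 and 38 (41.3%) higher by over 0.5 against 11.9% of all genes. Lower and higher genes were not tested against each other. Over all 8878 genes, 1 probe set each, the differences of the 2 lines gave 0.40 as Pearson's r and 0.42 as Spearman's rho, across genes that are not independent replicates.

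**Figure D2:**
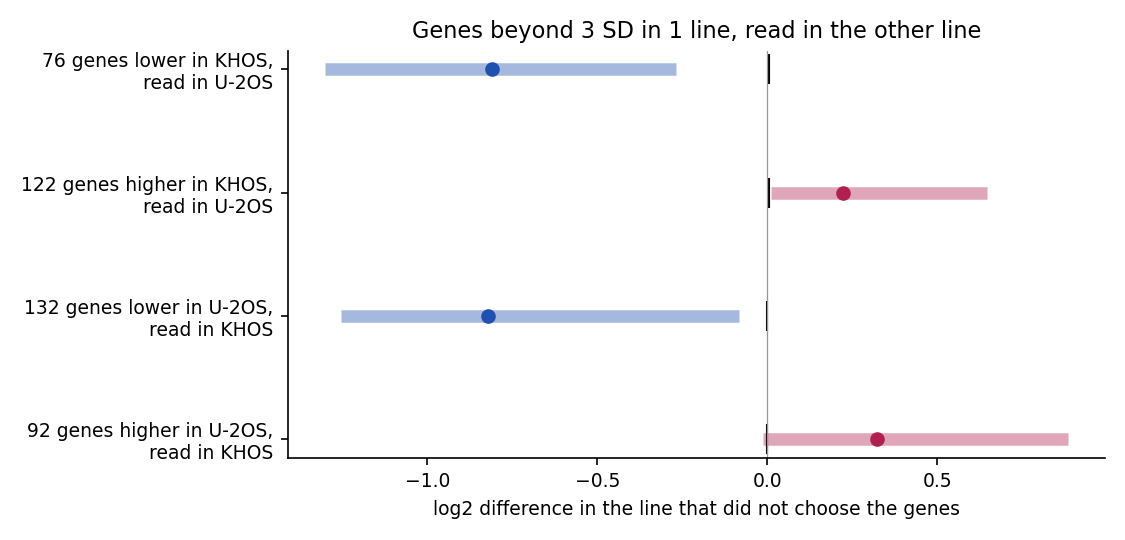
Genes beyond 3 SD in 1 line, read in the line that did not choose them. Points are medians of the log2 difference of CDK11 siRNA and untransfected cells, bars run from the lower to the upper quartile, and the black tick is the median of all genes. Points and bars use the probe sets beyond the bound in the choosing line, and the tick uses the brightest probe set of each gene. The lower genes have medians of -0.81 and -0.82, and the higher genes 0.22 and 0.32.

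Initiation of DNA replication was represented by CDC7, the kinase that fires licensed origins, and MCM3, a subunit of the replicative helicase, each measured by 1 probe set. CDC7 was at 9.62 in untransfected cells, 9.12 after nonspecific and 7.04 after CDK11 siRNA in KHOS, and at 8.42, 8.19 and 6.93 in U-2OS. MCM3 was at 10.91, 10.78 and 9.23 in KHOS and at 11.50, 11.04 and 9.41 in U-2OS. In each line the 2 control arrays of both genes lay within 0.50 of each other, and the CDK11 siRNA array was the lowest of the 3. The mean difference from untransfected cells was -2.04 ± 0.77 (SD, n = 2 lines) for CDC7 and -1.88 ± 0.30 for MCM3, or 4.10-fold and 3.68-fold lower. Their promoters are printed because these genes led the replication genes among the 23. The sequences are from RefSeq (GRCh38.p14) and hold the 180 bases before the start of the gene, for CDC7 the second of 2 listed starts, read 5′ to 3′ on the strand of the gene, with matches to the E2F motif TTTNNCGC on either strand in capitals.
CDC7, chr1:91500932-91501111, plus strand: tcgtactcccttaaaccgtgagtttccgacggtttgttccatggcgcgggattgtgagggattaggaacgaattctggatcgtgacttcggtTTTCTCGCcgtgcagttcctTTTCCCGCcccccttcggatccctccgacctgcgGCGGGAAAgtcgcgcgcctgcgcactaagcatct
MCM3, chr6:52284743-52284922, minus strand: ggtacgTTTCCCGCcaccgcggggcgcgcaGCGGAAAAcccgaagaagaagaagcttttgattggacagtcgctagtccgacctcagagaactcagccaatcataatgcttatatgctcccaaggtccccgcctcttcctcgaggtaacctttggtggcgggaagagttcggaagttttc
E2F factors bind promoters of replication genes. In the printed stretch CDC7 had 3 matches, which began 88, 68 and 34 bases before the start, and MCM3 had 2, at 174 and 150 bases before it. Over the 250 bases before a start, 6 of the 19 lower genes with a listed promoter held a match (CDC7, MCM3, CDCA7, NUCKS1, HNRNPA3 and PM20D2), as did 0 of 9 higher genes, 5.92% of all 35116 promoters and 7.15% of all genes when any of their starts was counted. A match is a run of letters, not a bound site, and no test was made of these shares.

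Some of the lower genes act in the ubiquitin system. Of a wider list of 28 enzymes of ubiquitin conjugation and removal, 1, USP13, was lower by over 0.5 in both lines by its brightest probe set (3.57%, against 3.76% of all 8878 genes) and 0 were higher, with medians of -0.03 in both lines. UBE2K, a ubiquitin-conjugating enzyme, had the lowest mean difference of all, -3.03 ± 0.60 (SD, n = 2 lines), by 1 of 3 probe sets, which was at 9.42 in untransfected cells, 9.12 after nonspecific and 5.96 after CDK11 siRNA in KHOS and at 8.49, 7.52 and 5.89 in U-2OS. Its other 2 probe sets were brighter and differed by -0.41 and 0.18 for KHOS, and by -0.38 and -0.07 for U-2OS. The lower UBE2K signal was measured by 1 of its 3 probe sets. USP13, a deubiquitinase, was at 9.10, 8.97 and 7.05 in KHOS and at 7.90, 6.91 and 5.16 in U-2OS by 1 of 3 probe sets, with a mean difference of -2.39 ± 0.49. The other 2 were also lower, by -0.92 and -0.58 for KHOS, and -1.22 and -0.49 for U-2OS. CDC27, a core subunit of the anaphase-promoting complex, was lower by all 4 of its probe sets in both lines, from -1.62 to -1.20 in KHOS and from -1.83 to -1.05 in U-2OS.

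Transcription factors and partners of RNA polymerase II were also among the lower genes. CBFB, the subunit that RUNX factors need to bind DNA firmly, was at 11.62, 11.73 and 9.58 in KHOS (untransfected, nonspecific siRNA and CDK11 siRNA) and at 10.95, 10.76 and 9.21 in U-2OS. The difference was -1.89 ± 0.22 (SD, n = 2 lines), and the second CBFB probe set, far dimmer, had -0.65 and -0.27. RPRD1A, which binds the carboxy-terminal domain of RNA polymerase II, was lower by all 4 of its probe sets in both lines, from -1.67 to -0.52 in KHOS and from -2.57 to -1.10 in U-2OS, with -1.88 ± 0.30 over those beyond the bounds. ZFP62, a zinc finger protein with 1 probe set, was at 10.11, 10.05 and 7.99 in KHOS and at 10.13, 9.68 and 8.18 in U-2OS. Its 2 differences, -2.12 and -1.95, were close to each other.

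In signalling, MAP2K4, a kinase that activates JNK, was at 9.93, 9.54 and 8.20 in KHOS and at 9.0, 8.44 and 7.01 in U-2OS by its brighter probe set. The dimmer probe set had -1.45 and -1.53, so that all 4 readings were lower with CDK11 siRNA. CCNY, a cyclin that is anchored at the membrane, was counted by 1 of 4 probe sets, with -2.01 in KHOS and -1.67 in U-2OS. The other 3 CCNY probe sets were brighter and ranged from -0.35 to -0.13 in KHOS and from -0.27 to -0.06 in U-2OS.

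TMEM19, a transmembrane protein, was lower by both of its probe sets, each beyond the bounds in both lines. Their mean lay at 7.79 in untransfected cells, 7.56 after nonspecific and 5.08 after CDK11 siRNA in KHOS and at 7.48, 6.81 and 4.83 in U-2OS, a difference of -2.68 ± 0.04 (SD, n = 2 lines). The CDK11 siRNA levels were below the signal limit, which makes the size uncertain. ITGBL1, a secreted protein with integrin-like repeats, was at 8.43, 6.79 and 6.10 in KHOS and at 7.44, 6.36 and 5.54 in U-2OS, and the nonspecific siRNA level was nearer to that of CDK11 siRNA than to that of untransfected cells in both lines. The KHOS values of ITGBL1 are means of 3 of its 4 probe sets and the U-2OS values are of 1. Its brightest probe set had -0.56 in KHOS and -0.87 in U-2OS. TMEM68 had -2.10 and -1.50 by 1 of 2 probe sets, and the brighter one had -0.27 and 0.02. The antisense transcript C10orf95-AS1 had -2.50 in KHOS, from 5.43 to 2.92, which is background, and -1.42 in U-2OS, from 8.12 to 6.70. The other 11 lower genes, MAP2K4 and CDC27 among them, had mean differences from -1.75 to -1.48.

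**Figure D3:**
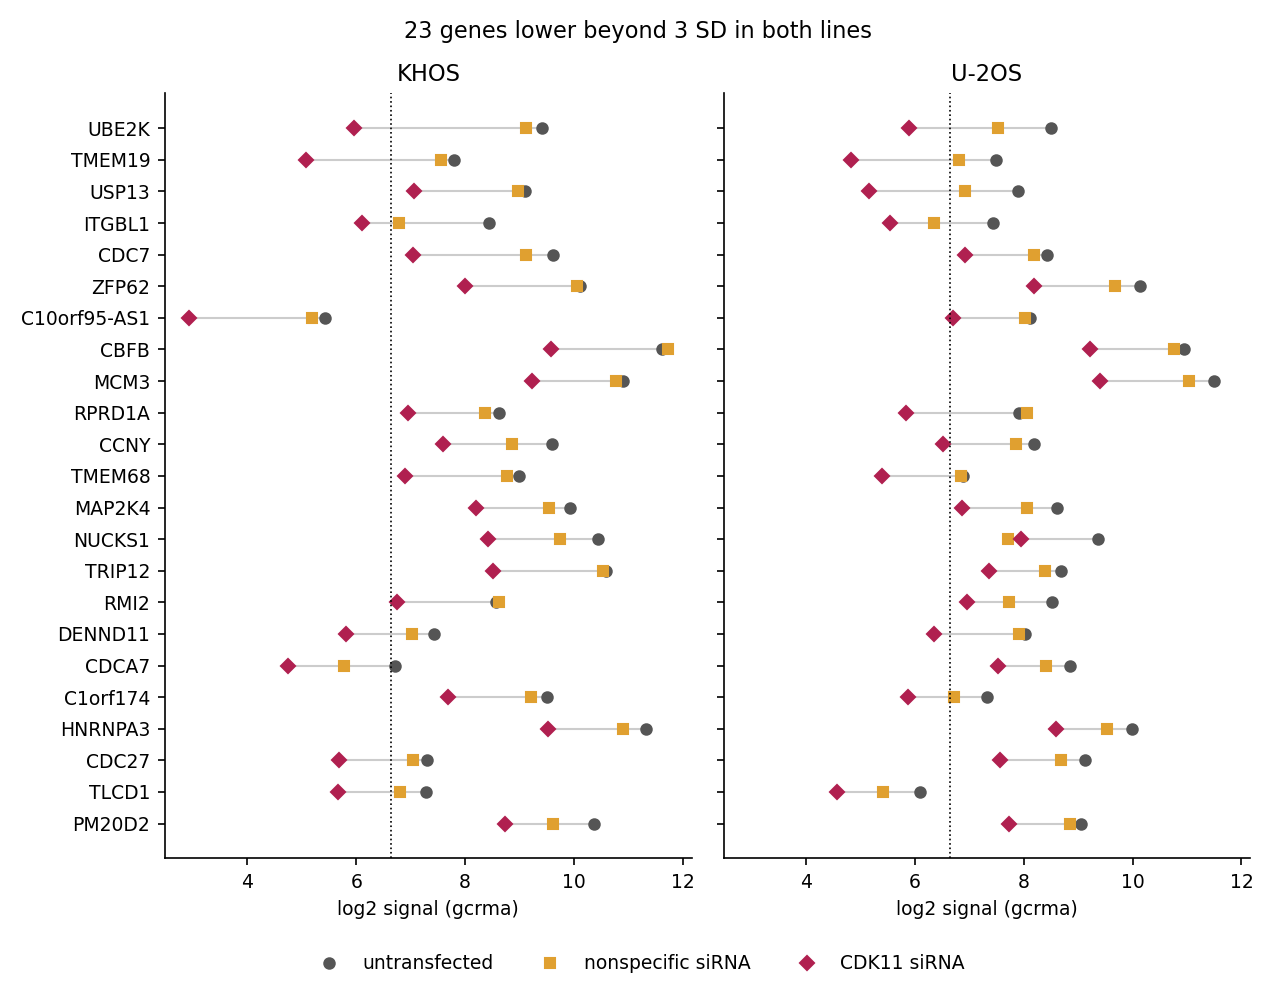
Log2 signal of the 23 genes lower beyond 3 SD in both lines, 1 point for each array (untransfected, nonspecific siRNA and CDK11 siRNA), as the mean of the probe sets beyond the bounds. The dotted line is the signal limit of 6.644. The CDK11 siRNA point is the lowest of the 3 in every gene and line except NUCKS1 in U-2OS, where nonspecific siRNA (7.72) lies below CDK11 siRNA (7.95).

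Over the 23 lower genes, the median difference of CDK11 siRNA from untransfected cells was -2.01 in KHOS and -1.56 in U-2OS. From nonspecific siRNA it was -1.52 and -1.26, and nonspecific siRNA differed from untransfected cells by -0.30 and -0.45. These comparisons share arrays, and the genes were chosen by the first of them. With nonspecific siRNA the level was nearer to that of CDK11 siRNA than to that of untransfected cells in 1 of the 23 genes in KHOS and in 3 in U-2OS. By probe set, 22 of the 23 were counted in both lines by the same probe set, the exception being CDCA7. The 16 genes with several probe sets had 31 probe sets that were not beyond the bounds in both lines, and 28 of these were below 0 in both lines. By 1 probe set per gene, 31.7% of all genes were below 0 in both lines. Some of the 31 were beyond the bound in 1 line, where the choice of genes fixed their sign. The count was not tested and is no independent support. When the brightest probe set alone stood for each gene, 11 of the 23 were counted, and UBE2K, USP13, ITGBL1, RPRD1A, CCNY and TMEM68 were among the 12 that were not.

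Among the higher genes, FOS and PTGS2 had the largest differences in KHOS, and HECW2 and STC1 in U-2OS. FOS, a subunit of the AP-1 factor, was at 5.26 in untransfected cells, 7.64 after nonspecific and 8.76 after CDK11 siRNA in KHOS and at 5.31, 6.48 and 6.75 in U-2OS. PTGS2, the inducible cyclooxygenase of prostaglandin synthesis, was at 6.49, 8.25 and 9.64 in KHOS and at 6.36, 6.66 and 7.80 in U-2OS. CXCL8, a chemokine that attracts neutrophils, was at 6.25, 7.58 and 8.48 in KHOS and at 5.72, 7.40 and 7.68 in U-2OS. In all 6 of these series untransfected cells were the lowest and CDK11 siRNA the highest, with nonspecific siRNA in between. The mean differences from untransfected cells were 2.47 ± 1.46 (SD, n = 2 lines) for FOS, 2.30 ± 1.21 for PTGS2 and 2.10 ± 0.20 for CXCL8. From nonspecific siRNA, FOS differed by 1.12 in KHOS and 0.27 in U-2OS, and CXCL8 by 0.90 and 0.28.

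IL6R, the chain of the interleukin-6 receptor that binds the cytokine, was higher by both of its probe sets in both lines. Their mean lay at 6.01, 6.81 and 7.82 in KHOS and at 8.24, 9.73 and 10.18 in U-2OS, a difference of 1.87 ± 0.08 (SD, n = 2 lines). The group also held 3 interferon-stimulated genes of antiviral defence. OASL, of the oligoadenylate synthetase family, was at 6.56, 9.22 and 9.38 in KHOS and at 3.19, 3.47 and 4.60 in U-2OS. OAS1, an oligoadenylate synthetase, was at 8.03, 9.69 and 9.74 in KHOS and at 3.08, 3.12 and 4.85 in U-2OS. ISG20, an exonuclease, was at 6.30, 8.19 and 8.67 in KHOS and at 6.79, 8.45 and 8.60 in U-2OS, there by 1 of 2 probe sets. In KHOS the nonspecific siRNA array of all of these was within 0.50 of the CDK11 siRNA array. In U-2OS that held for ISG20, while OASL and OAS1, there by 1 of 2 probe sets each, were near untransfected with nonspecific siRNA, at levels below the signal limit on all 3 arrays. Their other probe sets, as dim, did not show this, with 2.89, 3.57 and 3.32 for OASL and 2.62, 3.21 and 3.44 for OAS1.

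The promoters of ISG20 and CXCL8 are shown as examples of the antiviral and the inflammatory members. They are given as those above, with capitals for the interferon-stimulated response element (GAAA, any 2 bases, GAAA) and the AP-1 motif TGANTCA, on either strand, and for the TATA box TATAAA, also searched on either strand.
ISG20, chr15:88638836-88639015, plus strand: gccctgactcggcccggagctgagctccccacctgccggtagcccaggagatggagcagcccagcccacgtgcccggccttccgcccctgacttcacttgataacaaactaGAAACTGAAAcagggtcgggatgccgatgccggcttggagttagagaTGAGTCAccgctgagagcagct
CXCL8, chr4:73740389-73740568, plus strand: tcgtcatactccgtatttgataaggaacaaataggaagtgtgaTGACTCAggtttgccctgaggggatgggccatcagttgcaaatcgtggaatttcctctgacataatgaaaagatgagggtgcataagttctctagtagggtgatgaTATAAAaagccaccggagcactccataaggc
In ISG20 the response element began 69 bases and the AP-1 motif 22 bases before the start. In CXCL8 the AP-1 motif began 137 bases and the TATA box 31 bases before it. Over 250 bases, the response element was found in 1 of 9 higher genes with a listed promoter, 1 of 19 lower genes and 3.71% of all genes, the AP-1 motif in 2, 1 and 8.06%, and the TATA box in 3 (CXCL8, FOS and PTGS2), 2 and 13.0%. No test was made of these shares.

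STC1, which encodes the secreted glycoprotein stanniocalcin, differed from the genes above in that nonspecific siRNA was not in between in both lines. As the mean of 2 probe sets it was at 8.66, 9.13 and 10.43 in KHOS and at 4.41, 3.08 and 6.52 in U-2OS, the last 3 means below the signal limit. HECW2, a ubiquitin ligase, was at 2.99, 3.77 and 4.65 in KHOS, below the limit throughout, and at 3.75, 6.90 and 6.93 in U-2OS, where the 2 siRNA arrays differed by 0.03. NACA, a chaperone of nascent chains at the ribosome, was counted by 1 of 3 probe sets, with 2.16 and 1.31, and its other 2, among the brightest on the array, lay between -0.07 and -0.02 in both lines. CAMTA1, a calmodulin-binding transcription factor, was counted by 1 of 5 probe sets, with 1.65 and 1.56, and its 2 brightest had 0.29 and 0.14 for KHOS, and 0.24 and 0.07 for U-2OS.

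**Figure D4:**
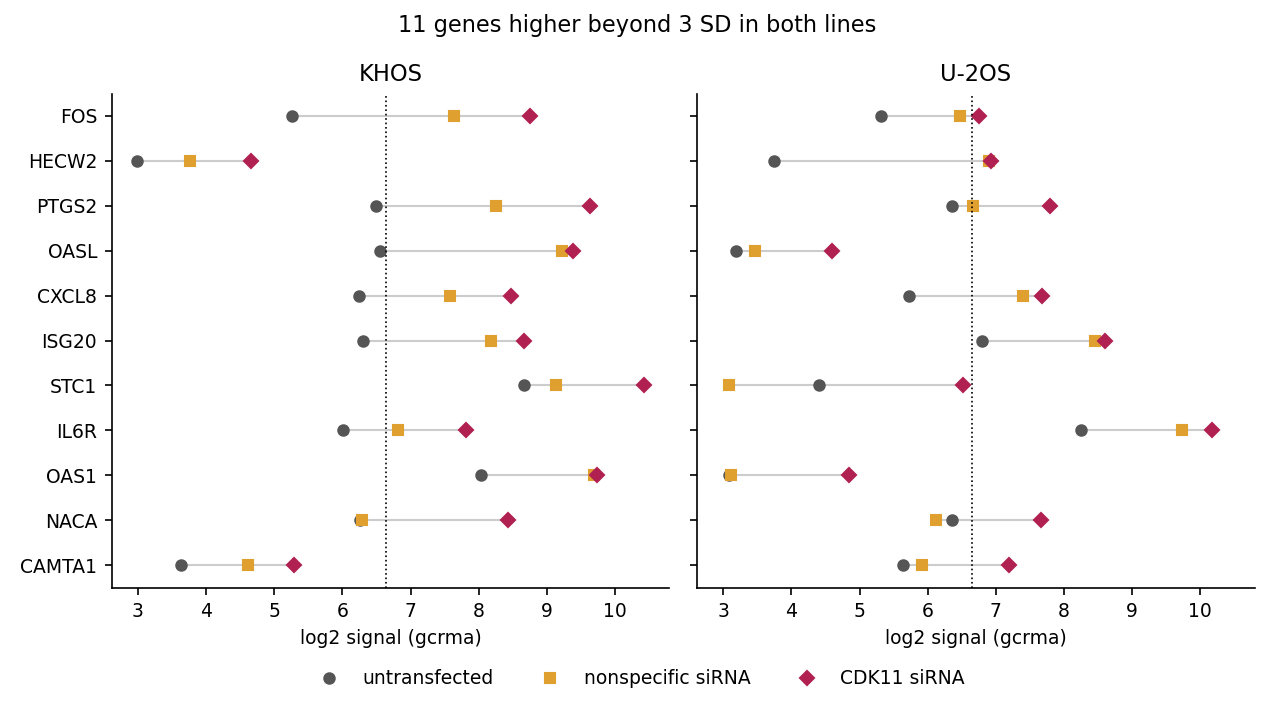
Log2 signal of the 11 genes higher beyond 3 SD in both lines, 1 point for each array, as the mean of the probe sets beyond the bounds, with the signal limit of 6.644 as a dotted line. The CDK11 siRNA point is the highest of the 3 in every gene and line, but the nonspecific siRNA point is close to it (within 0.5) for OASL, ISG20 and OAS1 in KHOS and for HECW2, FOS, CXCL8, ISG20 and IL6R in U-2OS.

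Over the 11 higher genes, the median difference of CDK11 siRNA from untransfected cells was 2.16 in KHOS and 1.77 in U-2OS. From nonspecific siRNA it was 0.90 and 1.13, and nonspecific siRNA differed from untransfected cells by 1.33 and 0.30. With nonspecific siRNA, 7 of the 11 in KHOS and 5 in U-2OS were nearer to CDK11 siRNA than to untransfected cells. With the mean of both control arrays in place of the untransfected array, 7 of the 11 were still beyond 3 SD in both lines, and FOS, HECW2, ISG20 and OAS1 were not, while of the 23 lower genes 22 were. Of the counted genes, DENND11 (-1.62 in KHOS and -1.69 in U-2OS) and CAMTA1 were nearest to the bounds. Of those not counted the nearest were HAUS5, a subunit of the augmin complex of the spindle, with -2.16 and -1.30, and RORA, a nuclear receptor, with 1.66 and 1.23.

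With the lines as replicates, limma with cell line as a block and all 6 arrays called 0 of 8878 genes (0%) at an adjusted p below 0.05 for CDK11 siRNA against untransfected cells. Before adjustment 1625 genes (18.3%) had a p under 0.05, 772 higher and 853 lower, and no adjusted p was below 0.0856. When the prior of the variance was allowed to follow the level, 279 genes passed (3.14%), 91 higher and 188 lower, so that the count depends on how the spread of 2 residual degrees of freedom is moderated. The genes of lowest p were MAP2K4, TMEM19, MCM3, TCF4 and DENND11 among the lower and IL6R, CXCL8, ADAM12, ANKRD46 and RORA among the higher. MAP2K4 had a log2 fold change of -1.86 ± 0.13 (SE) and IL6R of 1.95 ± 0.14, each with an adjusted p of 0.0856 in limma. TCF4, a basic helix-loop-helix factor, was at 9.81 in untransfected cells, 8.91 after nonspecific and 8.42 after CDK11 siRNA in KHOS and at 8.26, 7.24 and 6.61 in U-2OS. ADAM12, a membrane-bound metalloprotease, was at 5.95, 6.30 and 7.18 in KHOS and at 7.23, 7.59 and 8.55 in U-2OS. ANKRD46 was at 9.04, 9.78 and 10.36 in KHOS and at 6.93, 7.86 and 8.30 in U-2OS. For these 3 genes the nonspecific siRNA array lay between the other 2 in both lines.

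The difference between this control and the other is the difference of nonspecific siRNA from untransfected cells. In the same fit it passed 0 genes, with 751 (8.46%) at an unadjusted p under 0.05 and a smallest adjusted p of 0.345, and 5 (0.0563%) with the prior that follows the level. That no gene passed does not show that the 2 controls were alike. For CXCL8 that difference was 1.5 with an adjusted p of 0.459, and for MCM3 it was -0.29 with an adjusted p of 0.641, both in limma.

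Gene lists were described by the brightest probe set of each gene, counting members that lay away from untransfected cells by over 0.5 in the same direction in both lines. Of all 8878 genes, 334 were lower in this way (3.76%) and 245 higher (2.76%), and the median of all genes was 0.00 in KHOS and 0.01 in U-2OS. No list was tested.

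The lists of DNA replication, homologous recombination and mitosis had medians below 0 in both lines. So did cholesterol and fatty acid synthesis (-0.19 in KHOS and -0.28 in U-2OS) and, nearer to 0, the chromatin, ubiquitin and housekeeping lists. For cholesterol and fatty acid synthesis in U-2OS, the median was -0.34 for nonspecific siRNA against untransfected cells. It was 0.01 there for CDK11 siRNA against nonspecific siRNA. Of 53 DNA replication genes, 6 were lower in both lines and 0 higher, with medians of -0.43 in KHOS and -0.18 in U-2OS, and 48 and 42 of the 53 were below 0. Besides CDC7 and MCM3 these included RFC4, a subunit of the clamp loader (-1.65 in KHOS and -0.55 in U-2OS), and GINS2, a subunit of the replicative helicase complex (-1.05 and -0.60). Of 20 genes of homologous recombination and Fanconi anaemia, 4 were lower and 0 higher, with medians of -0.63 and -0.24. They were BRCA1 (-1.39 and -0.78), FANCB (-1.26 and -0.76), FANCC (-0.79 and -0.79) and FANCE (-0.59 and -0.84), all with roles in the repair of breaks or crosslinks. FANCB was below the signal limit on every U-2OS array, and FANCC on every KHOS array. In U-2OS FANCC was at 6.99 in untransfected cells, 6.17 after nonspecific and 6.20 after CDK11 siRNA. Of 45 mitosis genes, 6 were lower and 0 higher, with medians of -0.45 and -0.24, and 43 and 42 were below 0. CENPA, the histone variant of the centromere, had -0.68 and -1.0, BIRC5, which encodes survivin, -0.94 and -0.70, the kinase NEK2 -0.85 and -0.76, and the topoisomerase TOP2A -0.95 and -0.55.

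For the mitosis genes in U-2OS most of that difference was also there with nonspecific siRNA. Their median in U-2OS was -0.37 for nonspecific siRNA against untransfected cells and 0.10 for CDK11 siRNA against nonspecific siRNA, while in KHOS the 2 values were -0.19 and -0.22. TOP2A in U-2OS was at 12.34 in untransfected cells, 11.68 after nonspecific and 11.79 after CDK11 siRNA. For DNA replication genes the same 2 medians were -0.17 and 0.00 in U-2OS and -0.09 and -0.42 in KHOS. MCM3 and CDC7 had -1.63 and -1.26 between CDK11 siRNA and nonspecific siRNA in U-2OS. They were the 2 genes of the list beyond 3 SD in both lines. That choice used the same CDK11 siRNA array, so their distance from the list median was largely fixed by it.

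The lists of antiviral defence, inflammation and stress lay to the higher side. Of 40 interferon-stimulated genes, 8 were higher in both lines and 0 lower. Of these 8, 5 were not over the signal limit on any U-2OS array (IFIT3, IFI44, IFI44L, OAS1 and GBP1) and had been kept through their KHOS levels, so that their U-2OS differences are of dim signals. In KHOS 39 of the 40 were higher by over 0.5, with a median of 1.77, and in U-2OS 8 were higher and 4 lower by over 0.5, with a median of 0.11. In KHOS the median for nonspecific siRNA against untransfected cells was 1.76 and that for CDK11 siRNA against nonspecific siRNA -0.05, so that the levels with the 2 siRNAs were about the same. IFIT3, which acts in antiviral defence, was at 11.60, 13.70 and 13.65 in KHOS and at 5.40, 6.39 and 6.58 in U-2OS, and IFI44L at 10.36, 12.68 and 12.52 and at 3.12, 3.47 and 3.87. Of 14 genes that sense double-stranded RNA or pass on that signal, only the sensor RIGI was higher in both lines, with 1.58 and 1.07, and the medians were 0.46 and 0.02. Between CDK11 siRNA and nonspecific siRNA, RIGI differed by -0.14 in KHOS and 0.75 in U-2OS.

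Of 12 inflammatory mediators, 4 were higher and 0 lower, with medians of 0.84 and 0.45. Besides PTGS2 and CXCL8 they were TNFAIP3, an inhibitor of NF-kappa-B signalling (2.26 and 0.78), and the cytokine IL11 (0.77 and 0.93). Between CDK11 siRNA and nonspecific siRNA, IL11 differed by only 0.10 in KHOS and -0.07 in U-2OS, and TNFAIP3 by 1.68 and 0.50. Of 24 genes of the integrated stress response, 7 were higher and 0 lower, with medians of 0.74 and 0.19. ATF3, a stress-induced transcription factor, had 2.46 and 0.54, DDIT4, an inhibitor of mTOR signalling, 1.87 and 0.79, DDIT3, which encodes CHOP, 1.57 and 0.84, and CTH, an enzyme of cysteine synthesis, 1.55 and 0.70. In KHOS most of these differences were also there with nonspecific siRNA, which was at 9.46 for ATF3, against 7.45 untransfected and 9.91 with CDK11 siRNA. In U-2OS nonspecific siRNA lay above untransfected cells by 0.25 for ATF3, 0.76 for DDIT3 and 0.37 for CTH. DDIT4 in U-2OS was instead lower with nonspecific siRNA (11.72) than untransfected (12.33) and highest with CDK11 siRNA (13.12).

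Of 29 genes of hypoxia and glycolysis, 5 were higher and 0 lower, with medians of 0.25 and 0.27. Besides STC1, NDRG1, a stress-responsive gene, was at 9.15, 9.88 and 10.70 in KHOS and at 10.23, 10.15 and 11.74 in U-2OS. The glucose transporter SLC2A3 had 1.69 and 0.65, and PFKFB4, which sets the level of an activator of glycolysis, 0.68 and 1.06. PFKFB4 was below the signal limit on every KHOS array. In U-2OS the nonspecific siRNA arrays of STC1, NDRG1 and PFKFB4 were below the untransfected ones, and SLC2A3 was not (0.60 above). Of 26 MAP kinases and immediate early genes, 4 were higher and 1, MAP2K4, was lower, with medians of 0.50 and 0.02. DUSP5, a phosphatase of ERK, had 1.21 and 0.89, and SPRY2, a feedback inhibitor of the same pathway, 1.11 and 0.67. Between CDK11 siRNA and nonspecific siRNA, DUSP5 differed by 0.84 in KHOS and 0.01 in U-2OS, and SPRY2 by 0.71 and 0.62.

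**Figure D5:**
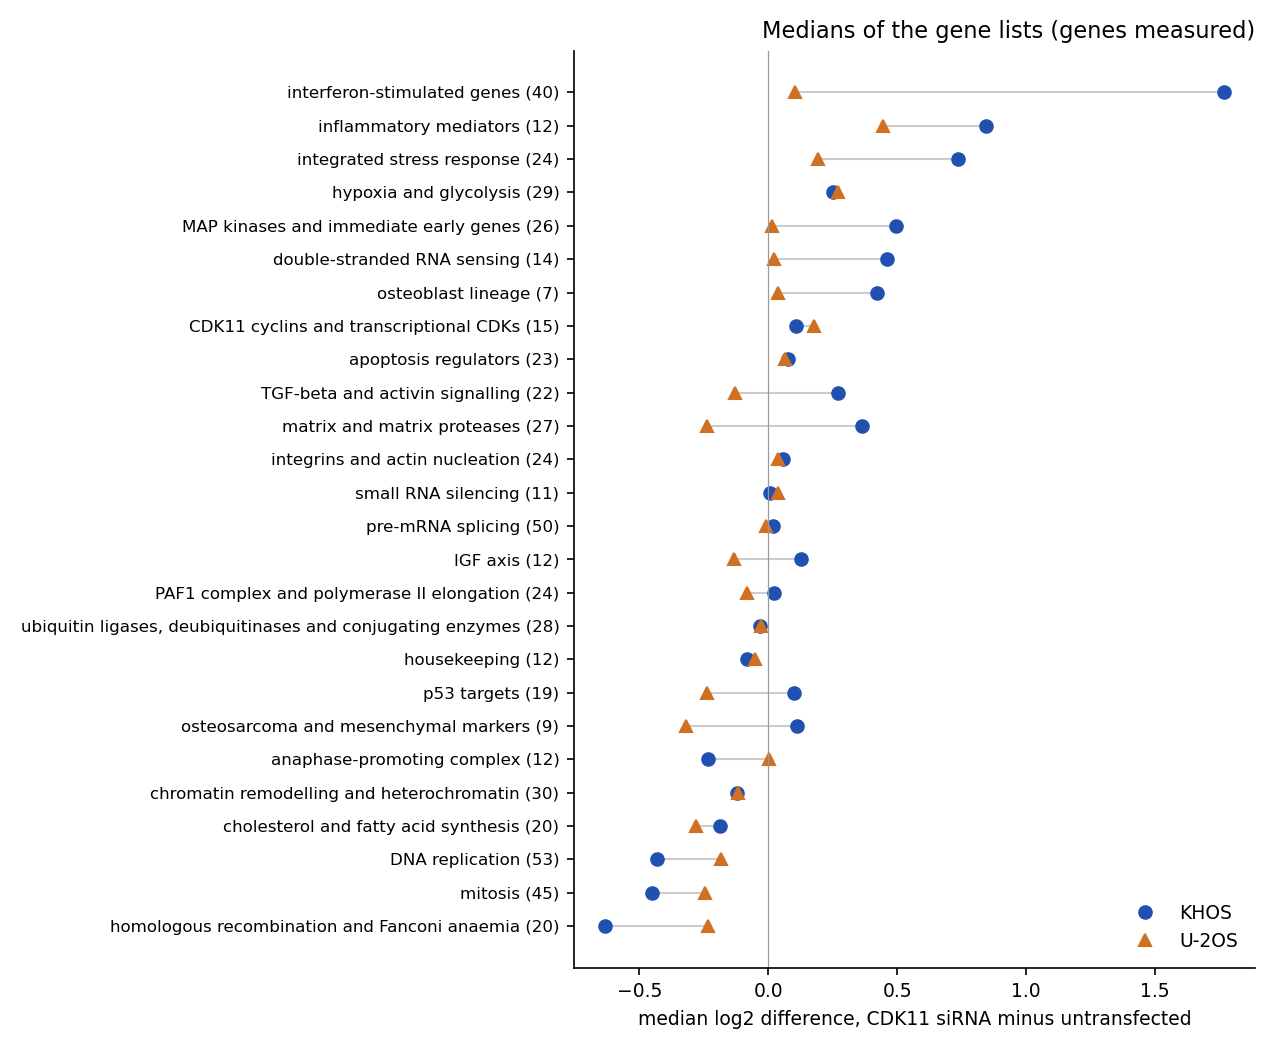
Median log2 difference of CDK11 siRNA and untransfected cells in KHOS (circles) and U-2OS (triangles) for the 26 lists with at least 7 genes measured, whose number is in brackets. Interferon-stimulated genes have 1.77 in KHOS and 0.11 in U-2OS, and the 3 lowest lists in KHOS are DNA replication, mitosis, and homologous recombination and Fanconi anaemia.

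Among genes that act near CDK11, 0 of 15 cyclins and kinases of transcription were lower or higher in both lines, with medians of 0.11 and 0.18. CCNL1, a cyclin L that pairs with CDK11, had 0.90 in KHOS and 0.49 in U-2OS. Of 24 genes of the PAF1 complex and polymerase II elongation, 2 were lower and 1 higher. LEO1, a PAF1 complex subunit, was at 10.27 in untransfected cells, 10.27 after nonspecific and 8.91 after CDK11 siRNA in KHOS and at 8.06, 8.17 and 6.09 in U-2OS. RPRD1A was the other lower gene, and ELL2, an elongation factor, had 0.55 and 0.75. The 2 control arrays of LEO1 were within 0.11 of each other in both lines. Of 50 splicing genes, 2 were lower and 1 higher, with medians of 0.02 and -0.01. The splicing regulator SRSF6 had -0.91 and -1.32 by its brighter probe set, and -0.41 over both lines and both probe sets. SF3B2, a component of the splicing machinery, had -0.52 and -0.82, and the kinase CLK1, which phosphorylates splicing factors, 0.69 and 0.52. These shares, 4% lower and 2% higher, were near those of all genes.

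Lists of cell death differed little. Of 23 apoptosis regulators 2 were higher and 0 lower, with medians of 0.08 and 0.07. BMF, a pro-apoptotic member of the BCL2 family, was at 4.14, 4.53 and 6.90 in KHOS and at 3.28, 3.18 and 3.78 in U-2OS, near background, and the caspase CASP4 had 0.61 and 0.56. Of 19 p53 targets 1 was higher (TNFRSF10B, a death receptor, 0.76 and 0.51) and 1 lower (DDB2, a DNA repair gene, -0.52 and -0.67). DDB2 was below the signal limit on every KHOS array. Between CDK11 siRNA and nonspecific siRNA, CASP4 differed by 0.28 in KHOS and -0.21 in U-2OS. TNFRSF10B differed by 0.49 and 0.35, and DDB2 by -0.17 and 0.65. Of 12 housekeeping genes none was lower or higher in both lines, and their medians were -0.08 and -0.05.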

How the data were processed

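Total RNA of KHOS and U-2OS cells was hybridised to 6 Affymetrix U133 Plus 2.0 arrays, 1 per line and group, from 3 pooled flasks each. The authors made log2 values with gcrma, which corrects background, normalizes by quantiles and summarises each probe set, and deposited them for all 54675 probe sets. Quantile normalization removes any shift common to all genes. The number of arrays limits the precision. The replicates are the 2 lines, and the fit removes their difference in level. The p-values therefore rest on how far the lines disagree in the differences between the groups, taken over all 6 arrays. They do not measure the variation between cultures of 1 line.

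Probe sets were named from the platform annotation (41097 with 1 symbol, 1801 with several, 11777 with none), with symbols updated by gene ID for 41043. Probe sets were kept whose highest value of the 6 arrays was over 6.644, log2 of a signal of 100. The present and absent calls of the study's filter were not used here. In each line the log2 difference was centred and scaled over the kept probe sets, and a gene was counted beyond 3 SD by any probe set and averaged over those beyond. For limma 3.58.1 (R 4.3.3) and the lists the probe set of the highest mean stood for a gene. The limma fit took all 6 arrays with a term for cell line and 2 residual degrees of freedom, two-sided, with Benjamini-Hochberg adjustment at 0.05 over 8878 genes. The cell line pairs the arrays, since arrays of a line share its cells. Tables and figures were made with Python 3.11.15, pandas 2.3.3, numpy 2.4.6 and matplotlib 3.10.9, and both rules were tested on simulated data.

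Named are the 12 lowest and up to 12 highest genes (here all 11) beyond 3 SD in both lines, the nearest genes at the bounds, genes in opposite directions, the 5 lowest p in each direction and up to 4 members of each list that moved by over 0.5 in both lines, or else 2. CDCA7, NUCKS1, HNRNPA3, PM20D2, TRIP12, TLCD1, IFI44 and GBP1 fall outside this and were named after their values were seen. CDK11A and CDK11B, named as the target, and VIM and ALPL, named as cell type markers, fall outside it too. The members, the 30 lists and the alternatives were chosen with earlier results of these data known. Promoter sequences are from RefSeq, which lists 19 of the 23 lower and 9 of the 11 higher genes.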

Additional observations from a re-analysis of the deposited data

Results flagged for a closer look

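BCL2A1, an anti-apoptotic member of the BCL2 family with 1 kept probe set, was the only gene beyond 3 SD in opposite directions in the 2 lines. CDK11 siRNA differed from untransfected cells by -1.97 in KHOS and by 1.62 in U-2OS, and this difference between the lines was not tested. The levels were 7.03 in untransfected cells, 4.66 after nonspecific and 5.05 after CDK11 siRNA in KHOS, and 7.84, 9.82 and 9.46 in U-2OS, so that in each line the array with nonspecific siRNA was the farther from the untransfected one.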

How the results depend on the processing

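For the genes beyond 3 SD in both lines, the counts of lower and higher genes (23 and 11) were 43 and 30 at 2.5 SD, 107 and 47 with a fixed log2 difference of 1, 92 and 51 with median and MAD, 11 and 7 by the brightest probe set alone, and 106 and 67 with no filter on level. They were 23 and 11 over the highest value of the 4 arrays compared, 22 and 13 with a filter at 8, 34 and 12 with the mean of both control arrays, and 23 and 11 with the arrays centred on their median. All 23 and all 11 genes were among those of 2.5 SD, the fixed difference and median and MAD. With no filter TRIP12 was lost, and with the filter at 8, where 19 and 9 were shared, TMEM19, CDC27, CDCA7, TLCD1, CAMTA1 and HECW2 were lost. By the brightest probe set 11 and 7 were shared, and with both controls 22 and 7. A narrower bound admits more genes by construction, and the cause of the other shifts was not tested.

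In limma the 0 calls of CDK11 siRNA against untransfected cells became 279, and those of nonspecific siRNA 5, when the variance prior was allowed to follow the level, and the cause was not tested. Without the replicate block by cell line 0 genes passed in each comparison, with 89 and 26 genes at an unadjusted p under 0.05. With the 4 arrays alone, the mean over kept probe sets, no filter, a filter at 8 or centring, 0 passed, with smallest adjusted p between 0.0506 and 0.242 for CDK11 siRNA and between 0.221 and 0.658 for nonspecific siRNA. Leaving out 1 array at a time gave between 0 and 1 calls in both comparisons. The 1 call came without the untransfected U-2OS array for CDK11 siRNA, and without either untransfected array for nonspecific siRNA. The lone sample of a group is then assumed to vary like the others.

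No named gene that was counted in the same direction in both lines changed its direction with the mean over all kept probe sets. That mean includes the probe sets beyond the bounds, and for genes with 1 probe set it is the same value. It is therefore no independent check of direction. NACA stayed above 0 through its counted probe set alone, since its others were below 0 in both lines. Centring moved these genes too little to reverse any of them (UBE2K from -3.029 to -3.020). In either line alone their direction was fixed by the way they were chosen. BCL2A1, with opposite directions, was at -0.18 over both lines and at 1.62 without KHOS. With the mean over all kept probe sets, UBE2K went from -3.03 to -1.12, USP13 from -2.39 to -1.33, CBFB from -1.89 to -1.18, CCNY from -1.84 to -0.60, TMEM68 from -1.80 to -0.96, NACA from 1.73 to 0.55, CAMTA1 from 1.61 to 0.58, ADAM12 from 1.27 to 0.82, CDH2 from -0.70 to -0.40 and SRSF6 from -1.11 to -0.41. Of 28 list medians, 4 changed sign with the mean over kept probe sets, 1 with centring, 6 without KHOS and 4 without U-2OS.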

Other observations

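The counts below, for lists of the matrix, of growth factor signalling and of chromatin among others, stand beside 3.76% of all genes lower and 2.76% higher. Of matrix genes 7.41% were higher and 3.70% lower, and of integrins and actin nucleators 8.33% and 0%. The 2 shares were 4.55% and 4.55% for TGF-beta and activin signalling, and 3.33% and 3.33% for chromatin. Each of these shares rests on at most 2 genes, and none was tested. Of 27 genes of the matrix and its proteases, 2 were higher and 1 lower, with medians of 0.36 in KHOS and -0.24 in U-2OS. The collagenase MMP1 was at 11.77 in untransfected cells, 11.36 after nonspecific and 12.28 after CDK11 siRNA in KHOS, and at 6.75, 10.57 and 10.14 in U-2OS, where both siRNA arrays lay far above the untransfected one. TNC, which encodes tenascin, had 0.89 and 0.54, and the collagen gene COL5A2 -1.11 and -0.95. COL5A2 was below the signal limit on every U-2OS array. Of 24 integrins and actin nucleators, 2 were higher and 0 lower, with medians of 0.06 and 0.04. ITGA2, a collagen receptor subunit, had 1.05 and 1.21, and ITGA5, a fibronectin receptor subunit, 1.12 and 0.74. Of 22 genes of TGF-beta and activin signalling, the receptor TGFBR2 was higher (1.28 and 0.66) and the target ID1 lower (-0.89 and -0.66), with medians of 0.27 and -0.13. Of 7 osteoblast genes, BMP2 was higher (1.56 and 1.26) and CBFB lower, with medians of 0.42 and 0.04. BMP2 was below the signal limit on every KHOS array. In U-2OS it was at 6.68 in untransfected cells, 7.87 after nonspecific and 7.94 after CDK11 siRNA. Of 12 genes of the IGF axis none was counted, with medians of 0.13 and -0.13. IGFBP5 in U-2OS was at 8.20 in untransfected cells, 3.02 after nonspecific and 5.57 after CDK11 siRNA, and it was near background on the KHOS arrays. IGFBP3 had 1.97 in KHOS and 0.31 in U-2OS, where it was near background.

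Of 20 genes of cholesterol and fatty acid synthesis, 1 was lower, the desaturase SCD (-0.87 and -0.54), with medians of -0.19 and -0.28. Between CDK11 siRNA and nonspecific siRNA, SCD differed by -0.64 in KHOS and -0.05 in U-2OS, and the list medians were -0.12 and 0.01. Of 30 chromatin genes 1 was lower, the helicase HELLS (-1.36 and -0.95), and 1 higher, the histone methyltransferase SETDB1 (0.53 and 0.62), with medians of -0.12 in both lines. SETDB1 was below the signal limit on every U-2OS array, and there nonspecific siRNA (5.95) lay above CDK11 siRNA (5.64). Of 12 subunits of the anaphase-promoting complex 1 was lower, CDC27, with medians of -0.23 and 0.00. Of 11 genes of small RNA silencing 1 was higher, TNRC6A (0.98 and 0.50), with medians of 0.01 and 0.04. Of 4 replication-dependent histone genes none was counted, with medians of 0.24 and -0.14. Of 9 measured mesenchymal markers 1 was lower, the cadherin CDH2 (-0.53 and -0.86), with medians of 0.11 and -0.32. CDH2 differed between CDK11 siRNA and nonspecific siRNA by only -0.05 in KHOS and -0.05 in U-2OS. Of 2 measured epithelial markers none was counted, with medians of 0.26 and -0.23.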
